A study of Mus musculus with 2 samples.

Results

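The leukotriene and prostaglandin pathway was described through 10 genes chosen by name: the leukotriene genes Alox5, Alox5ap, Ltc4s and Lta4h, the prostaglandin enzyme genes Ptgs1, Ptgs2, Ptges and Hpgds, and the receptor genes Ptger2 and Ptger4. They were taken by their GENCODE symbols from the 55487 genes of the count table, in which all 10 were found. The cells were Langerhans cells, which present antigen in the epidermis, from the ears of HTR2A-/- mice, which lack the serotonin 2A receptor. Per the labels they were sorted as CD207+ and MHC II+ cells and kept for 24 hours with Imiquimod, a Toll-like receptor 7 agonist, and an agent labelled a-CD40L before RNA was taken. In the series title they are described as monocyte-derived. The samples form 1 group of 2 (n = 2), called library 1 and library 2. Wild-type cells and cells without these agents were not analysed here, so every value below describes stimulated knockout cells, and no difference is an effect of genotype or treatment. The labels do not give the age or sex of the mice, whether animals were pooled or how the Htr2a allele was made.

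Leukotrienes and prostaglandins are lipid mediators made from arachidonic acid, which phospholipases release from membranes. The 5-lipoxygenase route forms leukotriene A4, which is turned into leukotriene B4, an attractant of neutrophils, or into the cysteinyl leukotrienes, which act on vessels and on dendritic cell movement. The cyclooxygenase route forms prostaglandin H2, from which separate synthases make prostaglandin E2, prostaglandin D2, prostacyclin and thromboxane. In skin, prostaglandin E2 is known to act on the migration of Langerhans cells to lymph nodes, in mice through the receptor that Ptger4 encodes.

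Library 1 held 69925160 counts and library 2 held 42264685, so counting error was small for every member but Ptger2. Each count was scaled to the total of its library (CPM), and divided by the length of a gene's merged exons where genes are compared with each other (CPM per kb). Intervals are exact 95% Poisson or binomial intervals and cover counting error only. Olfactory receptor genes, which are silent in most tissues, carried counts here. A gene was therefore called above background where it exceeded, in both libraries, the 95th percentile of 1135 such genes in CPM per kb, which was 0.761 in library 1 and 1.58 in library 2. The libraries stood apart in sex-linked genes. Xist, an RNA of female cells, was at 3.90 CPM in library 1, against 1384 CPM in library 2, while Ddx3y, on the Y chromosome, was at 149 CPM against 0.0946 CPM. All 6 Langerhans cell markers were above background, with Cd207, the gene of the sorting marker langerin, at 1125 CPM in library 1, against 1052 CPM in library 2. Htr2a itself was at 1.10 CPM in library 1, against 2.77 CPM in library 2, at percentiles 44.5 and 33.4 of the olfactory receptor genes, and which part of it was deleted is not stated in the labels.

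Of the 10 members, 9 passed this limit, and Ptger2 passed it in neither library. Of all protein-coding genes, 47.3% passed the same limit, 56.2% in library 1 and 50.4% in library 2. The 9 genes lay above every olfactory receptor gene in both libraries. In level per kb, Ptgs2 stood first and Alox5ap second in both libraries, and Ptger2 stood last in both. Between these the order differed: Ptges was the ninth in library 1 and the third in library 2, and Alox5 was the third in library 1 and the sixth in library 2. These ranks depend on the length used. With the longest annotated transcript as length, Hpgds stood above Alox5 in library 1 (65.4 against 57.7 CPM per kb). In library 2, Hpgds (39.8) and Ptgs1 (29.7) then stood above Ptges (26.5). Ptgs2, Alox5ap and Ptger2 kept their places with that length. Within a library only 1 pair of neighbours in the order had overlapping counting intervals, which was Lta4h and Ptges in library 1 and Ptges and Hpgds in library 2. Over both libraries the order of the means was Ptgs2, Alox5ap, Alox5, Ptgs1, Hpgds, Ltc4s, Ptges, Ptger4, Lta4h and Ptger2, and from Alox5ap to Ptger4 each mean ± SD overlapped that of its neighbour.

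**Figure D1:**
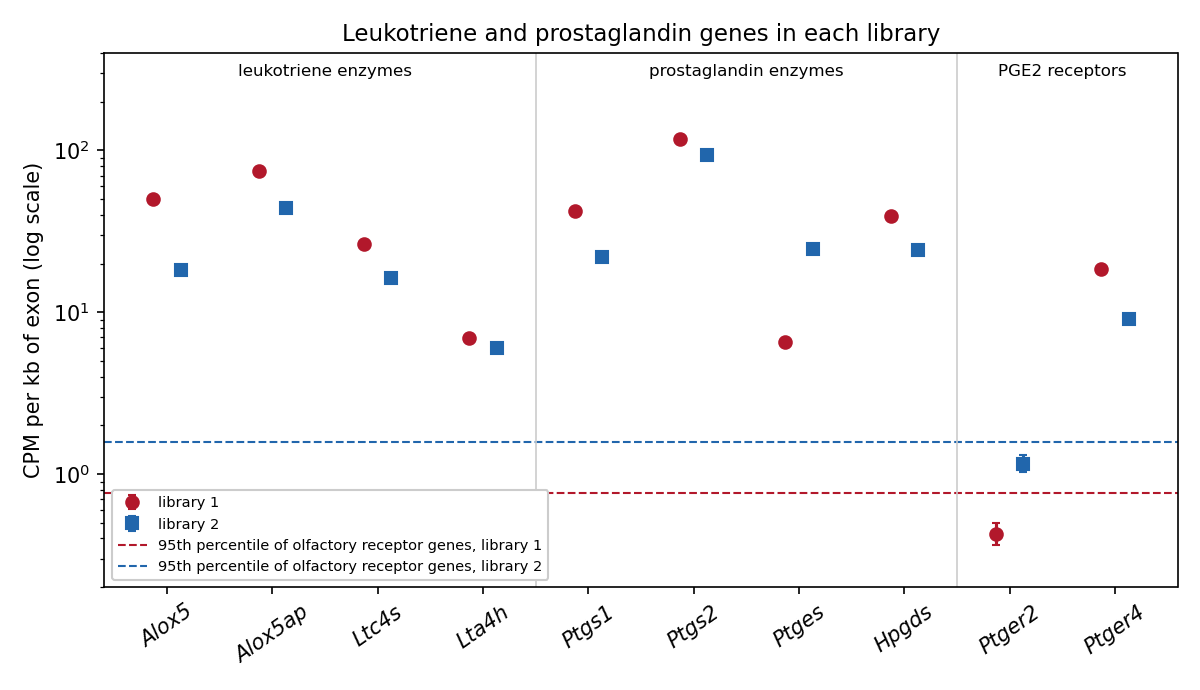
Level of each member in CPM per kb of exon (log scale) in library 1 (red circles, left of each pair) and library 2 (blue squares), with exact 95% Poisson intervals, most of which are smaller than the symbols. Dashed lines mark the background limits of 0.761 (library 1) and 1.58 (library 2), and Ptger2 is the member below both; Ptges is the member above background that is higher in library 2.

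The leukotriene genes were all above background and all had higher CPM in library 1. Alox5 (ENSMUSG00000025701, GRCm38 chromosome 6, 116410077 to 116461178, minus strand) encodes 5-lipoxygenase, which makes leukotriene A4 from arachidonic acid. It had 14423 counts, or 206 CPM (95% Poisson interval 203 to 210), in library 1 and 3187 counts, or 75.4 CPM (72.8 to 78.1), in library 2. Of the 10 members it differed most between the libraries toward library 1, 2.74-fold by CPM.

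Alox5ap (ENSMUSG00000060063, chromosome 5, 149264767 to 149288153, plus strand) encodes the membrane protein FLAP, which presents arachidonic acid to 5-lipoxygenase. It was at 107 CPM (95% Poisson interval 104 to 109) in library 1 and 62.4 CPM (60.0 to 64.8) in library 2. Per kb, Alox5ap exceeded Alox5 in both libraries, with a ratio of 1.49 (95% binomial interval 1.45 to 1.54) in library 1 and 2.39 (2.27 to 2.52) in library 2. The balance of the 2 partners thus differed between the libraries by more than counting error. An annotated antisense gene, Gm19719, shares 189 bases of exon with Alox5ap and had 579 counts in library 1 and 491 in library 2, against 7448 and 2637 for Alox5ap.

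The genes that act on leukotriene A4 stood at different levels. Ltc4s (ENSMUSG00000020377, chromosome 11, 50236461 to 50238616, minus strand) encodes leukotriene C4 synthase, which joins leukotriene A4 to glutathione. Its level per kb was 26.5 CPM per kb (95% Poisson interval 25.3 to 27.7) in library 1 and 16.3 CPM per kb (15.1 to 17.5) in library 2, from 1879 and 697 counts. Its antisense neighbour Gm26542 shares 268 bases of exon and had 313 counts in library 1 and 108 in library 2.

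Lta4h (ENSMUSG00000015889, chromosome 10, 93453411 to 93484875, plus strand) encodes leukotriene A4 hydrolase, which makes leukotriene B4. It was at 6.90 CPM per kb (95% Poisson interval 6.65 to 7.15) in library 1 and 6.05 CPM per kb (5.75 to 6.35) in library 2. It was the member whose level was most alike in the libraries, 1.14-fold higher in library 1 by CPM. Per kb, Ltc4s exceeded Lta4h 3.84 times (95% binomial interval 3.62 to 4.07) in library 1 and 2.69 times (2.46 to 2.94) in library 2. By counts alone the order was the other way, with Ltc4s at 0.638 of the Lta4h counts in library 1 and 0.447 in library 2, because Lta4h has 6102 bp of merged exon and Ltc4s 1014 bp.

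Both cyclooxygenase genes were expressed, and Ptgs2 was the higher in each library. Ptgs2 (ENSMUSG00000032487, chromosome 1, 150100031 to 150108227, plus strand) encodes the inducible cyclooxygenase COX-2. It had 37578 counts, or 537 CPM (95% Poisson interval 532 to 543), in library 1 and 18045 counts, or 427 CPM (421 to 433), in library 2. Among protein-coding genes its level per kb stood at percentile 99.1 in library 1 and 98.8 in library 2.

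Ptgs1 (ENSMUSG00000047250, chromosome 2, 36230426 to 36252272, plus strand) encodes COX-1, which many cells make without a stimulus. It was at 163 CPM (95% Poisson interval 160.3 to 166) in library 1 and 85.3 CPM (82.5 to 88.1) in library 2. Per kb, the ratio of Ptgs2 to Ptgs1 was 2.79 (95% binomial interval 2.73 to 2.85) in library 1 and 4.25 (4.10 to 4.40) in library 2. Ptgs2 thus exceeded Ptgs1 in both libraries, and by more in library 2. An unclassified gene on the opposite strand, Gm43621, shares 148 bases of exon with Ptgs1 and had 192 counts in library 1 and 131 in library 2.

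The 2 synthases downstream of prostaglandin H2 went opposite ways between the libraries. Ptges (ENSMUSG00000050737, chromosome 2, 30889471 to 30929863, minus strand) encodes the inducible microsomal prostaglandin E synthase. It had 1796 counts, or 25.7 CPM (95% Poisson interval 24.5 to 26.9), in library 1 and 4092 counts, or 96.8 CPM (93.9 to 99.8), in library 2, which is 3.77-fold higher in library 2. It was the only member above background with a higher CPM in library 2.

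Hpgds (ENSMUSG00000029919, chromosome 6, 65117293 to 65144908, minus strand) encodes the hematopoietic prostaglandin D synthase. It was at 254 CPM (95% Poisson interval 251 to 258) in library 1 and 155 CPM (151 to 159) in library 2. Per kb, Hpgds exceeded Ptges 6.06 times (95% binomial interval 5.77 to 6.36) in library 1. In library 2 the ratio was 0.979 (0.941 to 1.02), an interval that includes 1. With the longest annotated transcript as the length, the ratio in library 2 was 1.50, so the order of Hpgds and Ptges there depends on the length used.

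The letters upstream of Ptgs2, Ptgs1 and Ptges are shown because Ptgs2 and Ptgs1 are the cyclooxygenase pair and Ptges was the enzyme gene that was higher in library 2. Each is the stretch of 250 bases before the RefSeq start on GRCm38.p6, written 5′ to 3′ on the gene's strand. Capitals mark matches to the motifs searched, each on both strands. The letters GGGCGG are the GC box. The core bound by many ETS factors was written AGGAAGT. The motif of C/EBP factors was searched as TTGCNNAA, which is a palindrome only as TTGCGCAA. The letters TATAAA stand for the TATA box. No matches overlapped in these 3 windows.
Ptgs2, chr1:150099781-150100030, plus strand: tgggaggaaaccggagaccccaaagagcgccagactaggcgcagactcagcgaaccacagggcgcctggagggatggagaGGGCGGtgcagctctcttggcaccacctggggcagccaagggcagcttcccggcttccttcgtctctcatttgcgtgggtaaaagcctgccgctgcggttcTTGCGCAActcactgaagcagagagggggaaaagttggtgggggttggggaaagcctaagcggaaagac
Ptgs1, chr2:36230176-36230425, plus strand: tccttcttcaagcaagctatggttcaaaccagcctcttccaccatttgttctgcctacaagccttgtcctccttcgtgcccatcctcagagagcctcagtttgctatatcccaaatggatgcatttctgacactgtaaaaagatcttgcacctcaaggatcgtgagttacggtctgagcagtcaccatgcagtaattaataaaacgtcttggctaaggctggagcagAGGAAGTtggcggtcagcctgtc
Ptges, chr2:30903298-30903547, minus strand: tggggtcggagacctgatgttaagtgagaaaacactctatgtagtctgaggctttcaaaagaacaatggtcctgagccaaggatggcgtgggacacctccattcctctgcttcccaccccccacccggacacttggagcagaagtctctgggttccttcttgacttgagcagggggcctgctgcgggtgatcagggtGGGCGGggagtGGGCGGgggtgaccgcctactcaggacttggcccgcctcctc

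The Ptgs2 window holds 1 GC box, whose first base lies 170 bases before the start, and 1 C/EBP palindrome, TTGCGCAA, at 69 bases. The Ptgs1 window holds 1 ETS core at 23 bases and neither of the others, and the Ptges window holds 2 GC boxes, at 53 and 42 bases. Of the 9 members with an entry in the RefSeq table, 4 had a GC box in this window (Alox5, Ptgs2, Ptges and Ptger4) and 3 an ETS core (Ltc4s, Ptgs1 and Hpgds). The C/EBP motif was in 2 (Ptgs2, and Hpgds as TTATGCAA, not a palindrome) and the TATA box in 0. Of all 32851 windows of the same length in that table, 32.7% held the GC box, 7.69% the ETS core, 9.56% the C/EBP motif and 12.4% the TATA box. These matches describe letters only. Exons of Ptgs2os, a noncoding gene on the opposite strand, reach into the Ptgs2 window. It had 2.19 CPM in library 1 and 2.51 CPM in library 2. Per kb these were 0.505 and 0.579, within background in both libraries. The Ptges window lies in an intron of a longer noncoding Ptges transcript.

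Of the receptor genes, Ptger4 was above background and Ptger2 was not. Ptger4 (ENSMUSG00000039942, chromosome 15, 5206661 to 5244187, minus strand) encodes EP4, a receptor of prostaglandin E2 that raises cyclic AMP. It was at 123 CPM (95% Poisson interval 120.5 to 126) in library 1 and 60.8 CPM (58.5 to 63.2) in library 2, which is 2.02-fold higher in library 1. Its exons share 82 bases with Ttc33, a protein-coding gene on the opposite strand with 760 and 390 counts, against 8606 counts of Ptger4 in library 1 and 2570 in library 2. They also share 1015 bases with Gm15937, a processed pseudogene on the opposite strand with 0 counts in library 1 and 85 in library 2.

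Ptger2 (ENSMUSG00000037759, chromosome 14, 44988195 to 45003820, plus strand) encodes EP2, the other prostaglandin E2 receptor that raises cyclic AMP. It had 155 counts, or 0.427 CPM per kb (95% Poisson interval 0.362 to 0.500), in library 1 and 255 counts, or 1.16 CPM per kb (1.02 to 1.31), in library 2. Among the olfactory receptor genes these levels stood at percentile 80.5 in library 1 and 85.3 in library 2, so expression of Ptger2 was not detectable above background. Overlapping genes on the opposite strand, Gm17173 and Gm49364, had 115 and 61 counts in library 1 and 102 and 9 in library 2. Per kb, Ptger4 exceeded Ptger2 43.4 times (95% binomial interval 37.0 to 51.2) in library 1 and 7.87 times (6.92 to 8.99) in library 2, and since Ptger2 lay within background both ratios depend on counts that could not be told from background.

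How far the replicates differed was measured with the log2 ratio of library 1 over library 2, scaled by TMM. This method sets a trimmed mean of the gene ratios to no difference, so a median can still lie off it. A gene was called where it differed at least 2-fold, and no p-value is given, since 1 group of 2 libraries leaves none for a comparison of conditions. Of the 10 members, 6 were at least 2-fold higher in library 1: Alox5 (log2 ratio 1.95, 95% binomial interval 1.90 to 2.01), Ptger4 (1.52), Ptgs1 (1.44), Alox5ap (1.27), Hpgds (1.22) and Ltc4s (1.20). By the same scaling, 12.6% of all 30373 genes with at least 1 CPM in a library were at least 2-fold higher in library 1, and 20.7% of the protein-coding genes above background. Ptges was at least 2-fold lower in library 1 (log2 ratio -1.41, 95% binomial interval -1.49 to -1.33), as were 24.5% of all genes and 4.95% of protein-coding genes above background. Ptgs2 (0.83), Lta4h (0.69) and Ptger2 (-0.94) lay inside 2-fold.

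The median ratio of the 10 members was 1.21, that of all genes -0.15 and that of protein-coding genes above background 0.43. With total counts in place of TMM every ratio is lower by about 0.50, and the median of all genes is -0.65 and that of the members 0.71. Then 2 members, Alox5 and Ptger4, were at least 2-fold higher in library 1, against 5.48% of all genes and 7.98% of protein-coding genes above background, and 2 members, Ptges and Ptger2, at least 2-fold lower, against 38.6% of all genes and 12.3% of protein-coding genes above background. Every member had the same sign under TMM, total counts and DESeq2 size factors. The direction of each, and not the count past 2-fold, was thus independent of these 3 scalings. Ptger2, however, lay within background in both libraries. The median of the olfactory receptor genes was 0.221 CPM per kb in library 1 and 0.645 in library 2. The direction of Ptger2 and its call with total counts therefore cannot be told apart from those of background.

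**Figure D2:**
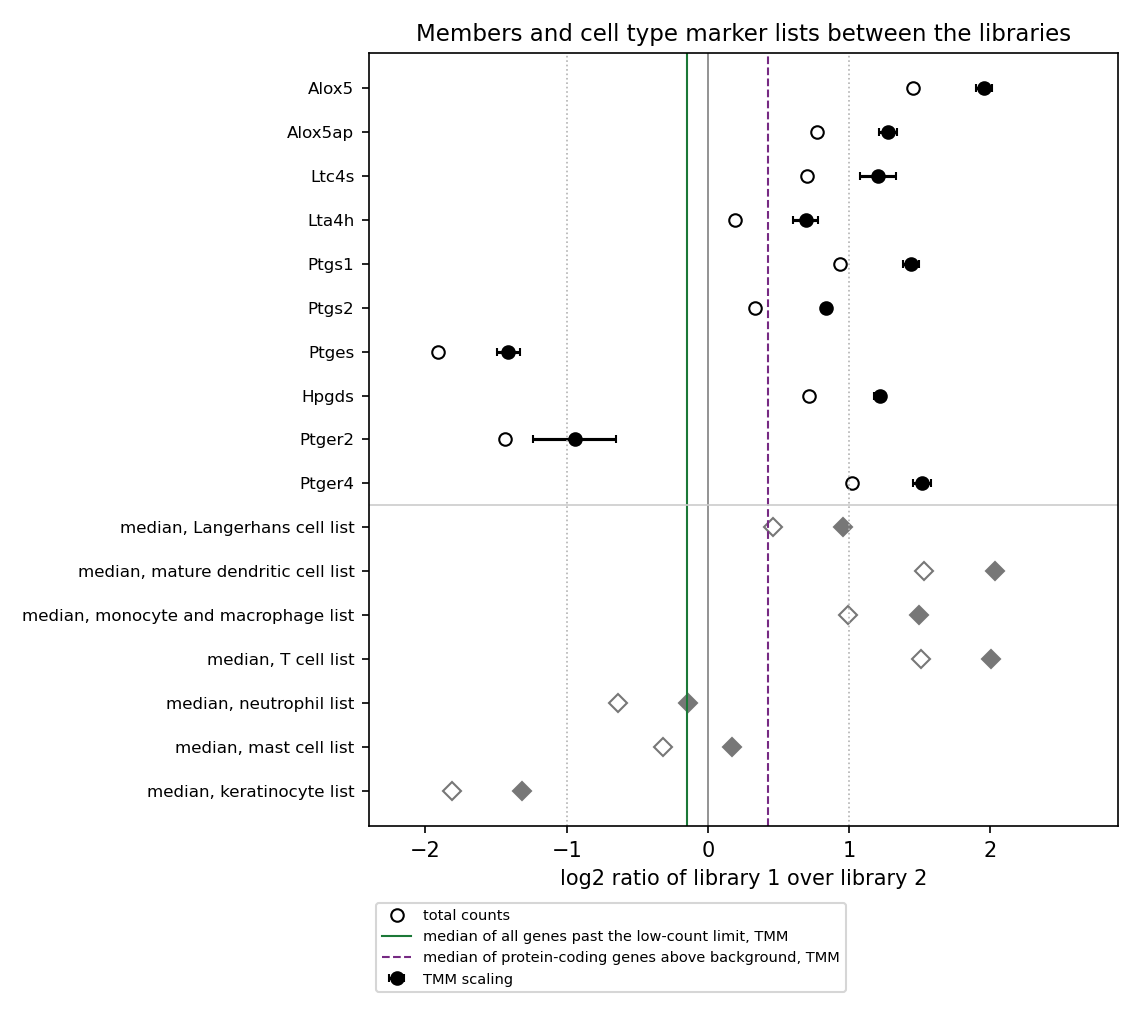
Log2 ratio of library 1 over library 2 for each member (circles, with exact 95% binomial intervals for counting error) and the median of 7 cell type marker lists (diamonds), with TMM scaling (filled) and total counts (open). Dotted lines mark 2-fold. With TMM, Ptges, at -1.41, lies beside the keratinocyte median of -1.31. Alox5, at 1.95, lies beside both the mature dendritic cell median of 2.03 and the T cell median of 2.01. The fibroblast list, which is not plotted, had a median of 1.92, with 0 of 5 markers above background in both libraries. No cell source was tested.

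Markers of cell types and states differed between the libraries as well, and in bulk RNA fewer cells of a type and less RNA per cell cannot be told apart. The 7 mature dendritic cell markers, all above background, summed to 3153 CPM in library 1, against 846 CPM in library 2, with a median log2 ratio of 2.03. The 8 monocyte and macrophage markers, 7 of them above background, summed to 2035 CPM in library 1, against 1043 CPM in library 2, with a median of 1.50. The 6 Langerhans cell markers summed to 18638 CPM in library 1, against 10161 CPM in library 2, with a median of 0.96. That sum rests on Cd74, Mfge8 and H2-Ab1, while Epcam (155 CPM in library 1, against 178 CPM in library 2) and Cdh1 (481 CPM in library 1, against 793 CPM in library 2) had the higher CPM in library 2, as did Mrc1 among the monocyte and macrophage markers. With TMM, Cdh1 (log2 ratio -0.22) and Mrc1 (-0.20) were still lower in library 1, but Epcam (0.30) was higher there. The medians of these 3 lists had the same direction as the 8 members with higher CPM in library 1, and their part in those ratios was not tested.

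The 8 keratinocyte markers were all above background and summed to 4059 CPM in library 1, against 13849 CPM in library 2, with a median log2 ratio of -1.31. Krt14, a keratin of basal keratinocytes, was at 1315 CPM in library 1, against 4806 CPM in library 2. No keratinocyte marker was at 0 in either library. Ptges had the same direction, and the part of keratinocyte RNA in its level was not tested.

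Cells other than Langerhans cells are known to express some members. Mast cells make Hpgds, Ltc4s and Ptgs1, and of 8 mast cell markers 2 were above background in both libraries, Hdc and Kit, with Mcpt4 at 0 counts in library 1. The protease genes Cpa3 (0.471 CPM per kb in library 1 and 0.780 in library 2), Tpsb2 and Tpsab1 and the IgE receptor gene Ms4a2 lay within background in both, and the chymase gene Cma1 (1.08 and 1.02) passed the limit in library 1 alone. The 8 markers summed to 65.4 CPM in library 1, against 46.5 CPM in library 2, and the part of mast cells in the levels of these members was not tested. Neutrophils make Alox5 and Alox5ap, and all 6 neutrophil markers were above background, at 313 CPM in library 1, against 620 CPM in library 2 in sum. The sum rested mainly on S100a8 and S100a9, which stressed keratinocytes also express, while the receptor gene Csf3r was at 56.3 CPM in library 1, against 15.2 CPM in library 2, so the list had no single direction, and the part of neutrophils in the 2 genes was not tested. T cell markers, 4 of 5 above background, summed to 187 CPM in library 1, against 114 CPM in library 2, with a median log2 ratio of 2.01. Cd3e, Cd3g, Cd3d and Trdc were each at least 2-fold higher in library 1, while Thy1 was at 30.9 CPM in library 1, against 68.3 CPM in library 2, and the part of T cells in the members' ratios was not tested. Of the remaining lists, 1 of 5 platelet (Pf4), 0 of 3 basophil, 0 of 3 eosinophil, 0 of 5 fibroblast and 1 of 4 endothelial markers (Pecam1) were above background in both libraries. Taken by itself, library 1 had 3 of 5 fibroblast and 3 of 4 endothelial markers above its background. The median log2 ratios of these lists were 1.92 and 0.76. Col1a1, Col1a2 and Col3a1 were each at least 2-fold higher in library 1, and passed the limit in that library alone. Dcn was at least 2-fold lower in library 1 but lay within background in both libraries. The part of these cells was not tested.

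Beside the members, 42 further genes of the pathway were measured, and 20 of them, close to the 47.3% of protein-coding genes, were above background in both libraries. With TMM, of the 41 that passed the low-count limit, 8 were at least 2-fold higher in library 1 and 7 were lower by that much, with a median log2 ratio of 0.16. The shares over all genes were 12.6% higher and 24.5% lower, and over protein-coding genes above background 20.7% higher and 4.95% lower. The second pair of shares is not a like comparison, since the 41 were not limited to genes above background. Of the lower genes, Ptgis, Ptgdr and Ptgfr passed the background limit in neither library. Of the higher genes, Ggt1 passed it in neither, and Alox12e, Cyp4f18 and Cysltr1 in library 1 alone. Taken by itself, library 1 had 32 of the 42 above its background, where 56.2% of protein-coding genes passed, and library 2 had 20, where 50.4% did.

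Of the 3 phospholipase genes upstream, 2 were above background in both libraries. Pla2g4a, the cytosolic phospholipase A2 that releases arachidonic acid, was at 6.19 CPM per kb in library 1 and 4.95 CPM per kb in library 2. Pla2g5, a secreted phospholipase, was at 9.04 CPM per kb in library 1 and 3.99 CPM per kb in library 2, and was at least 2-fold higher in library 1 (log2 ratio 1.68). Pla2g10 had 0 counts in library 1 and 16 in library 2.

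Of the 6 other lipoxygenase genes, 3 passed both limits, and all 6 were below Alox5 per kb (50.2 CPM per kb in library 1 and 18.4 in library 2). Alox12b (2.51 CPM per kb in library 1 and 10.8 in library 2) and Aloxe3 (1.80 and 6.76), which act in the epidermal barrier, were at least 2-fold lower in library 1, the direction of the keratinocyte markers. Alox8 was at 0.900 CPM per kb in library 1 and 2.15 in library 2. Alox12 and Alox12e were above background in library 1 alone, and Alox15 in neither library.

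Of the genes that convert or inactivate leukotrienes, 4 of 9 were above background in both libraries. Dpep2, a membrane dipeptidase that converts leukotriene D4 to E4, was the highest at 17.3 CPM per kb in library 1 and 9.91 CPM per kb in library 2, and was at least 2-fold higher in library 1 with TMM (log2 ratio 1.30) but not with total counts (0.80). Mgst3, a microsomal glutathione transferase, was at 4.84 CPM per kb in library 1 and 4.98 in library 2. Ptgr1, a reductase that inactivates leukotriene B4, was at 1.96 and 3.27 CPM per kb in the same order, and Mgst2, which can also make leukotriene C4, at 0.769 and 1.68, just above both limits. Cyp4f18, which oxidises leukotriene B4 in mouse neutrophils, had 1253 counts in library 1 and 71 in library 2, where it lay within background.

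Of the leukotriene receptors, the leukotriene B4 receptor genes Ltb4r1 (3.26 CPM per kb in library 1 and 5.87 in library 2) and Ltb4r2 (2.16 and 7.56) were above background in both libraries. Ltb4r2 was at least 2-fold lower in library 1 (log2 ratio -1.30). The cysteinyl leukotriene receptor genes Cysltr1 (2.88 CPM per kb in library 1 and 1.21 in library 2) and Cysltr2 (1.22 and 0.980) passed the limit in library 1 alone.

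Of the other prostanoid synthases, Ptges3, which encodes the cytosolic prostaglandin E synthase that is also the co-chaperone p23, was the highest at 43.8 CPM per kb in library 1 and 45.7 in library 2. Between 2.26 and 3.40 CPM per kb were Fam213b (3.40 in library 1 and 2.26 in library 2), a prostamide and prostaglandin F synthase, Cbr1 (2.94 and 2.62), a carbonyl reductase that acts on prostaglandin E2, and Akr1b3 (2.56 and 2.52), an aldose reductase with prostaglandin F synthase activity. Ptges2, a membrane-associated prostaglandin E synthase, was at 0.789 CPM per kb in library 1 and 2.09 in library 2. The lipocalin-type prostaglandin D synthase gene Ptgds (0.824 and 0.732 CPM per kb) and the thromboxane synthase gene Tbxas1 (1.04 and 1.55) passed the limit in library 1 alone, and the prostacyclin synthase gene Ptgis (0.284 and 0.949) in neither, so Hpgds was the prostaglandin D synthase gene above background in both libraries.

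All 4 genes of transport and breakdown were above background. Abcc1, which exports leukotriene C4, was at 9.66 CPM per kb in library 1 and 11.4 in library 2, and Abcc4, which exports prostaglandins, at 14.9 and 7.35. Abcc4 was at least 2-fold higher in library 1 (log2 ratio 1.52). Hpgd, the dehydrogenase that inactivates prostaglandin E2, was at 10.2 CPM per kb in library 1 and 14.5 in library 2. Slco2a1, which takes up prostaglandins, was at 1.35 and 6.40 CPM per kb and was at least 2-fold lower in library 1 (log2 ratio -1.74).

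Of the 7 other prostanoid receptor genes, 0 passed the limit in both libraries, and 3 (Ptger3, Ptgir and Ptgdr2) passed it in library 1 alone. By the mean of both libraries the highest per kb were Ptger3, which encodes the prostaglandin E2 receptor EP3 (0.988 CPM per kb in library 1 and 1.25 in library 2), and Ptgir, the prostacyclin receptor gene (0.772 and 1.10). The prostaglandin D2 receptor genes Ptgdr (0.381 and 1.38 CPM per kb, the highest of the 7 in library 2) and Ptgdr2 (0.795 and 0.913) were likewise not above background in both. Together with Ptger2, this left Ptger4 as the prostanoid receptor gene above background in both libraries, among the 9 measured.

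**Figure D3:**
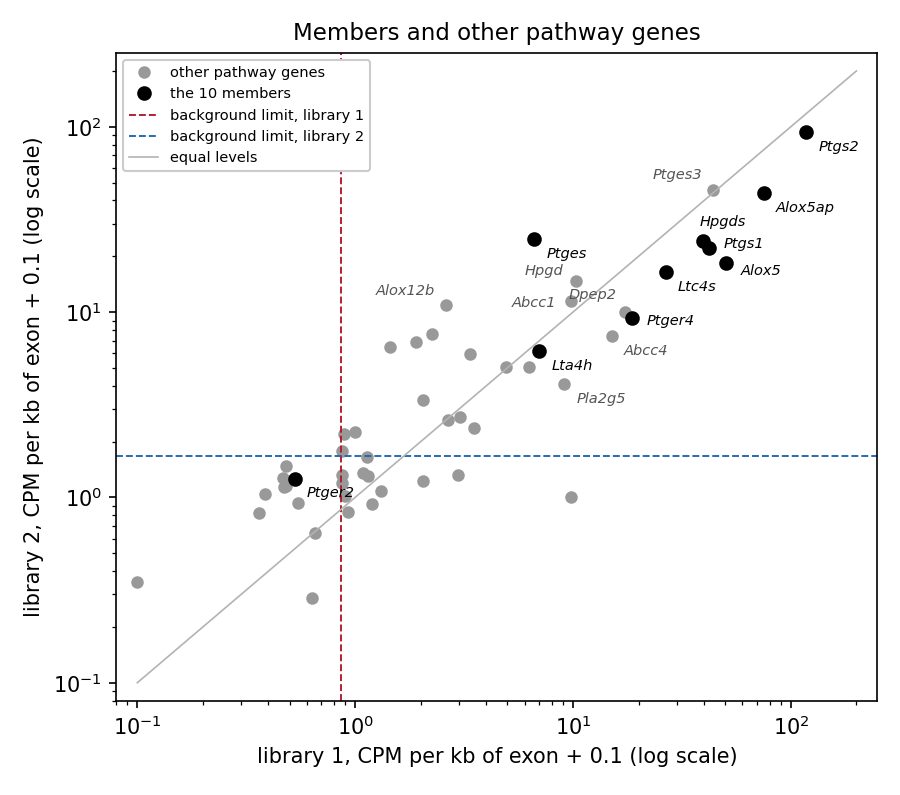
Level in library 1 (horizontal) against library 2 (vertical) of the 10 members (black) and the 42 other pathway genes (grey), in CPM per kb of exon plus 0.1 on log axes. Dashed lines are the background limits; 9 members and 20 other genes lie above both, and Ptges and Alox12b lie on the library 2 side of the line of equal levels while Alox5 and Ptger4 lie on the library 1 side.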

How the data were processed

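RNA sequencing counts of 2 libraries from 1 group were used. The authors deposited raw, whole-number counts for Ensembl genes, without normalization. Trimmomatic, HISAT2, SAMtools, StringTie and GRCm38 are named in the submitters' processing notes. Versions, strand use and whether reads or pairs were counted: not given in the sources used here. The column numbered 2 is library 2; the column without a number is library 1. The final row, which names no gene and holds the column sums, was dropped. Per the labels' protocols, libraries came from 10 to 70 ng of RNA with a stranded low-input kit, so RNA from a gene and its antisense partner can be told apart only if counting used strand.

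Symbols, positions and exon lengths came from GENCODE M21 on GRCm38, which held 55227 of the 55487 genes; Dpep2 has 2 rows, of which the one with more counts was kept. Log2 ratios used TMM from edgeR 4.0.16 (R 4.3.3), a prior count of 1 and genes with at least 1 CPM in a library. The ratio step was tested on simulated counts with a shared profile, set changes and sampling noise alone. Those counts lacked the difference in background between these libraries, so they cannot show how the scaling handles it. A quasi-likelihood test was not run, since 1 group leaves no comparison. Members, lists, background and motifs were chosen with earlier results of these data known. Named were all 10 members and, of the other pathway genes, those above background in both libraries and the 2 highest of each list; other genes were named after their values were seen. With 2 libraries, no gene was named for a pattern like a member's. Nothing in the labels ties the libraries to separate mice. By Xist and Ddx3y, library 1 was mostly of male cells and library 2 of female cells, so they were not from the same mouse. Every difference between the libraries therefore also runs along sex, whose part was not tested.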

Additional observations from a re-analysis of the deposited data

How the results depend on the processing

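Of 60 counts and ratios between genes recomputed under the alternatives, 44 stayed close to the reported value: a count within 1.5 times it, or a ratio within its counting interval. The count of members above background was 9 with the 99th percentile, with vomeronasal receptor genes as background, with the longest transcript as length, and in each library alone. For the other pathway genes, leaving out a library gave 20 to 32. With total counts, 4 members differed 2-fold, 2 higher in library 1 and 2 higher in library 2, against 7, 6 and 1 with TMM; of the other pathway genes, 5 were higher in library 1 and 13 higher in library 2, against 8 and 7. DESeq2 size factors, other low-count limits and a prior count of 5 kept each of these counts within 1.5 times.

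With the longest transcript as length, Ptgs2 over Ptgs1 was 2.12 in library 1 and 3.22 in library 2, Ltc4s over Lta4h 2.87 and 2.01, Hpgds over Ptges 9.28 and 1.50, and Ptger4 over Ptger2 54.2 and 9.85. With background subtracted, Ptger4 over Ptger2 was 88.7 and 16.4. These shifts follow from the lengths and the subtraction. Mean levels of Ltc4s, Lta4h, Hpgds and Ptger4 moved beyond 1 SD with that length. Leaving out a library leaves no ratio between libraries. No paired analysis was possible because both libraries form 1 group. Among the members, counting error weighed most on Ptger2, the gene with the fewest counts.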
